A study of Mus musculus with 10 samples.

Results

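Rab GTPases are small GTP-binding proteins that mark the membranes of the cell, and the genes described here are all rows of the deposited expression table whose symbol is Rab followed by a number and an optional letter. The pattern matched 59 of the 55858 genes in the table, without effectors or exchange factors. Of these, 45 had a mean of at least 1 TPM over the 10 libraries and were tested. TPM (transcripts per 1000000) is a read share corrected for gene length, so levels of different genes can be set side by side. The members nearest the limit were Rab36 (mean 1.02 TPM) and Rab15 (1.10 TPM) inside it, and Rab37 (0.91 TPM) and Rab27b (0.827 TPM) outside it.

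RNA was sequenced from whole hearts of 10 mice, 5 in a cKO group and 5 in a control group. All 10 animals carried the same genotype, labelled MCM; Chmp4bF/F, a floxed allele of Chmp4b, which encodes a subunit of the ESCRT-III membrane-cutting complex. The cKO animals were injected under the skin with tamoxifen at 0.1 mg/g for 2 days starting at postnatal day 0, the control animals were given corn oil, and hearts were collected at postnatal day 10. The series concerns the part of ESCRT in building T-tubules, the membrane folds of heart muscle cells. The labels neither spell out MCM nor name the promoter that drives it, and tamoxifen and the deletion of Chmp4b cannot be told apart, because no group received tamoxifen without the floxed allele. The labels give no strain or sex.

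A Rab protein is switched on when an exchange factor loads it with GTP and off when a GTPase-activating protein makes it hydrolyse the GTP. In its active form it sits on one kind of membrane through a lipid tail and recruits effectors, which tether vesicles, link them to motors or sort cargo. In heart muscle cells, Rab proteins carry glucose transporters, ion channels and other cargo to and from the surface, and endosomes marked by Rab proteins are where ESCRT acts on cargo bound for the lysosome.

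Chmp4b (chr2:154651705-154694785, plus strand, GRCm38) was lower in the cKO hearts. Scaled TPM is TPM after division by one factor per library, the median ratio of its genes to their mean over libraries, and so a level relative to the median gene. In scaled TPM, Chmp4b was 29.5 ± 1.38 in cKO and 60.8 ± 6.51 in control hearts (mean ± SD, n = 5 each), a ratio of 0.485 (two-sided exact permutation p = 0.00794, the smallest that 252 splits allow). In TPM as deposited it was 38.2 ± 1.42 in cKO and 47.4 ± 8.61 in control hearts (mean ± SD, n = 5 each), and the groups overlapped (exact permutation p = 0.0476). The 37 mitochondrially encoded genes held 39.4% ± 2.34 of TPM in cKO and 55.4% ± 3.96 in control libraries (mean ± SD, n = 5 each), and the median of the 13391 tested genes lay at a log2 difference of 0.63 as deposited and 0.01 after scaling. Xist was at 38.0 to 49.3 scaled TPM in cKO replicates 1, 5 and 7, where Ddx3y was under 0.1, whereas the other 7 libraries, all controls among them, had Ddx3y at 22.7 to 25.7. Xist lies on chromosome X and Ddx3y on chromosome Y, and the groups are not balanced for these sex-linked genes. Values without these 3 libraries are given for the Rab genes whose call they end. Summed scaled TPM of 6 cardiomyocyte markers was 17359 to 22437 in cKO and 31952 to 34436 in control hearts, and all 6 fell. All 11 tested macrophage markers rose (377 to 551 in cKO, 111 to 131 in control), all 6 fibroblast markers rose (973 to 1214 in cKO, 607 to 776 in control) and all 6 endothelial markers fell (181 to 231 in cKO, 289 to 324 in control). As deposited 1 cardiomyocyte marker rose and 3 fell, the endothelial markers had a median log2 difference of 0.17 in place of -0.54 after scaling, and the 11 macrophage and 6 fibroblast markers rose. The part of these shifts in the Rab results was not tested. In whole hearts, fewer cells of a type and less RNA per cell cannot be told apart.

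Rab3d rose and Rab3a fell more than any other Rab gene, and Rab3d exceeded Rab3a in 4 of 5 cKO hearts and in none of the 5 control hearts. Across the set, 14 of the 45 tested Rab genes rose and 7 fell on the scaled level (limma on log2(scaled TPM + 1), Benjamini-Hochberg adjusted p under 0.05 over all 13391 genes), and 24 were not called. Of all tested genes, 20.5% rose and 20.5% fell by the same rule, against 31.1% and 15.6% of the Rab genes. As deposited, 38 Rab genes rose and Rab3a alone fell, against a background of 75.7% higher and 3.42% lower among all tested genes. These shares of all tested genes are also the background of the counts by role group below. All 14 genes that rose after scaling also rose as deposited. Of the 7 that fell after scaling, Rab10 and Rab12 were called higher as deposited, Rab3a was called lower and the other 4 were not called. The median log2 difference of the Rab genes was 0.05 after scaling (from -1.63 to 1.89) and 0.75 as deposited (from -0.96 to 2.47). In 13 Rab genes (28.9%) the scaled values of the groups did not overlap, against 30.9% of all tested genes. All cKO hearts were above all control hearts in 10 of them and below in 3, against 15.5% and 15.4% of all tested genes. As deposited, 35 Rab genes had all cKO hearts above and Rab3a had all below, together 80% of the set, against 61.9%, 1.88% and, together, 63.7% of all tested genes.

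**Figure D1:**
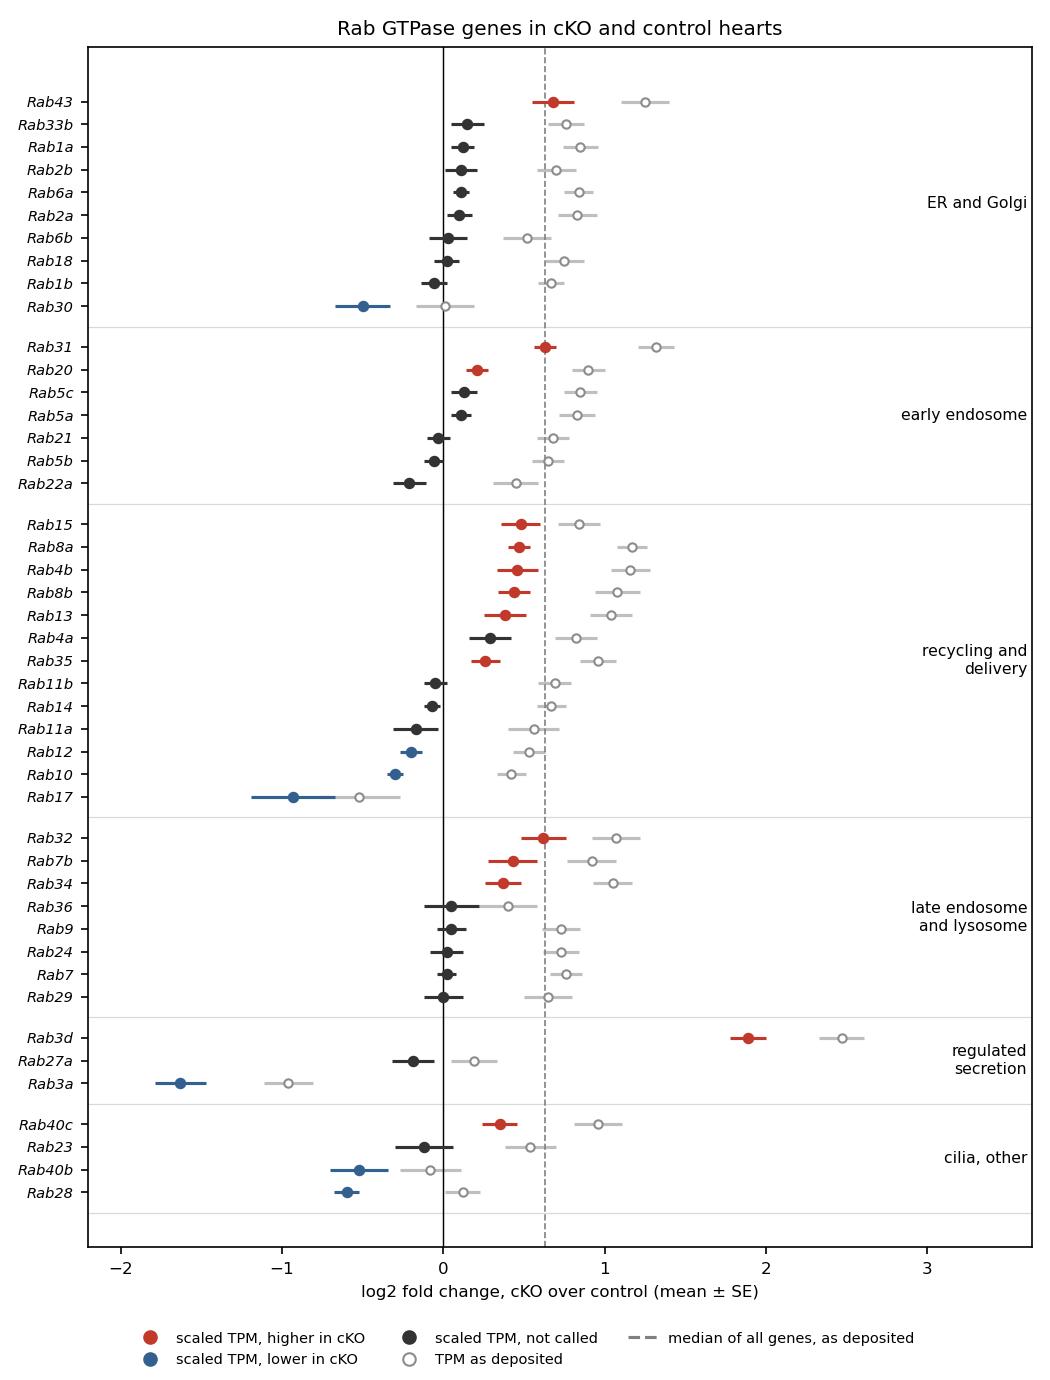
Log2 difference (cKO minus control) of each of the 45 tested Rab genes, in rows grouped by role, with filled points for scaled TPM (red called higher, blue called lower), open points for TPM as deposited, bars for the standard error (n = 5 hearts per group) and a dashed line at the median of all tested genes as deposited. Rab3d at 1.89 and Rab3a at -1.63 stand at the ends of the scaled values, and the deposited values lie to the right of them by about the shift of the median gene, which puts Rab10 and Rab12 above 0 as deposited and below 0 after scaling.

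Without cKO replicates 1, 5 and 7, which left 2 cKO hearts against 5 controls, 3 Rab genes rose (Rab3d, Rab31 and Rab8a) and 4 fell (Rab3a, Rab10, Rab17 and Rab28), with 12.4% and 13.3% of all tested genes called higher and lower. In these 7 hearts the log2 fold change of Rab3d was 1.77, the log2 fold change of Rab3a was -1.46, the log2 fold change of Rab31 was 0.51 and the log2 fold change of Rab8a was 0.56, while Rab17 passed the threshold only narrowly. With the Ddx3y level as a covariate, Rab43 joined the 3 that rose, the same 4 fell, and 12.1% and 13.1% of all tested genes were called. Leaving out 1 library at a time, 9 to 12 Rab genes rose (9 without control replicate 13) and 4 to 8 fell (4 without cKO replicate 1 or control replicate 6). The share of all tested genes called was not counted for these fits. Rab3d, Rab3a, Rab31 and Rab8a were the 4 genes whose call and direction held under every setting run, and their promoters are shown first.

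The sequence before the start site of these 4 genes is printed because their calls held on both scales, without any single library and without the libraries with Xist. Each is the 250 bases before the first RefSeq start on GRCm38.p6, 5′ to 3′ on the strand of the gene. The regions are chr9:21918184-21918433 (minus strand, 69.2% GC) for Rab3d, chr8:70754453-70754702 (plus strand, 58.8% GC) for Rab3a, chr17:65772753-65773002 (minus strand, 57.6% GC) for Rab31 and chr8:72160950-72161199 (plus strand, 61.6% GC) for Rab8a. Capitals mark a match to TGACNNNGC on either strand, the core of the antioxidant response element.
Rab3d: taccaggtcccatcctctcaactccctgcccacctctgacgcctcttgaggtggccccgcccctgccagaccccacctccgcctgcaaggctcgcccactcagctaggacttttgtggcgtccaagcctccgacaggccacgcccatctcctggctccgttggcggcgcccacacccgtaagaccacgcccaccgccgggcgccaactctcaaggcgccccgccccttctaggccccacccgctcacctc
Rab3a: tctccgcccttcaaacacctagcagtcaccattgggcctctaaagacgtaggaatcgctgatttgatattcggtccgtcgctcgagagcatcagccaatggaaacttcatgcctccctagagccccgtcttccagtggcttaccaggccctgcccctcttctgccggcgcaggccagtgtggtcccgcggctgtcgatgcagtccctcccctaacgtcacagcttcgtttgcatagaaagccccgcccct
Rab31: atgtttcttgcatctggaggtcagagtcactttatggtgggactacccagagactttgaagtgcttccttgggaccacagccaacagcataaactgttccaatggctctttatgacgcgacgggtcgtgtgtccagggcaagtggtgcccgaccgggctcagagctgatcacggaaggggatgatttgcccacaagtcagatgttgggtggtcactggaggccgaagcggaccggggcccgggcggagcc
Rab8a: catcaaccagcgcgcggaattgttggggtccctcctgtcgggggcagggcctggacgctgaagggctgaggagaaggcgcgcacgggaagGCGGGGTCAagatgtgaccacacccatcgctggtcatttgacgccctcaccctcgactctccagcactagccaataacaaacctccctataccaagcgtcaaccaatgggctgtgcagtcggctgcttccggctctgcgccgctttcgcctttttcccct
The Rab8a match lies on the strand opposite to the gene and starts at base -160. The other 3 windows hold no match to TGACNNNGC, and none of the 4 holds CACGTG, the E-box core found in many lysosomal gene promoters. A promoter entry was found for 39 of the 45 tested Rab genes. TGACNNNGC was in the windows of Rab43, Rab4b, Rab8a and Rab8b, which is 4 of the 13 genes with an entry that rose, in none of the 6 that fell, and in that of Rab7 among the 20 not called. In all it was in 5 of the 39 Rab windows (12.8%), against 11.5% of the 27025 genes and 10.2% of the 32851 promoters in the RefSeq table. CACGTG was in 5 of the 39 Rab windows (Rab20, Rab21, Rab23, Rab27a and Rab5a), of which Rab20 was the only gene called, against 6.86% of all genes and 6.02% of all promoters in the table. No Rab window held both motifs. A match is a string of letters and not a measured binding site.

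Among the Rab genes of regulated secretion, Rab3d rose 4.92-fold, Rab3a fell to 0.300 of its control level and Rab27a was not called. Rab3d (chr9:21907491-21918192, minus strand) encodes a Rab of secretory granules, best known in exocrine glands. In cKO replicates 1, 3, 5, 6 and 7 it had 12.1, 11.2, 11.7, 9.08 and 10.1 scaled TPM, against 1.98, 2.67, 2.41, 1.65 and 2.29 in control replicates 4, 6, 8, 9 and 13, the order used for every list of values that follows. Every cKO heart was above every control heart by a wide gap. The log2 difference was 1.89 (SE 0.11, adjusted p = 3.17e-07) after scaling and 2.47 (adjusted p = 4.03e-08) as deposited. By level, Rab3d stood 25th among the 45 tested Rab genes in cKO and 38th in control hearts.

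Rab3a (chr8:70754679-70758677, plus strand) encodes the Rab of synaptic vesicles, which binds vesicles before they fuse with the plasma membrane. It had 4.34, 5.10, 5.29, 9.23 and 7.58 scaled TPM in cKO hearts, against 21, 21.5, 19.8, 23.3 and 19.7 in control hearts. No library of one group reached the range of the other. The log2 difference was -1.63 (SE 0.16, adjusted p = 1.11e-05) after scaling and -0.96 (adjusted p = 8.01e-05) as deposited, and Rab3a stood 31st by level in cKO and 18th in control hearts. Its exons overlap those of Mpv17l2, but 0% of its 2313 distinct 50-base words are shared with other genes. No source used here gives the strand setting of the counting. The cKO spread had an order of its own: replicates 6 and 7, with the most Rab3a, had the least Rab3d. They also had the highest cardiomyocyte marker sums of the cKO group (22437 and 20639, against 17359 to 19499 in the other 3). Myl2 made up most of these sums (mean 11311 in cKO). In replicate 7, Myl2, Actn2 and Tnni3 were above replicates 1, 3 and 5. There, however, Tnnt2 (3560) and Ryr2 (25.3) were the lowest of the cKO group, and Myh6 (2085) was near its cKO minimum of 2083. The part of those markers in Rab3a was not tested.

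Rab3a made up 36.5% ± 9.89 of the summed TPM of Rab3a and Rab3d in cKO hearts and 90.5% ± 1.88 in control hearts (mean ± SD, n = 5 each), a ratio within each library that no scaling can alter. By library, the Rab3a share was 26.4%, 31.3%, 31.2%, 50.4% and 42.9% in cKO hearts, against 91.4%, 88.9%, 89.1%, 93.4% and 89.6% in control hearts. After scaling the summed level of the pair was lower, at 17.1 ± 0.85 scaled TPM in cKO and 23.3 ± 1.27 in control hearts (mean ± SD, n = 5 each), without overlap. Unlike the share, this sum turned with the scaling. As deposited it was higher in every cKO heart than in every control heart. The deposited means were 8.05 TPM (Rab3a) and 14.1 TPM (Rab3d) in cKO, against 16.3 and 1.71 TPM in control hearts. Rab3b and Rab3c were under the limit of 1 TPM. Rab27a, a Rab of melanosomes and lytic granules, had 0.970 ± 0.221 scaled TPM in cKO and 1.26 ± 0.336 in control hearts (mean ± SD, n = 5 each, log2 difference -0.19, adjusted p = 0.278). Cells rich in secretory Rabs were also read from their markers. Of 2 tested mast cell markers neither was called (summed 5.31 to 11.3 scaled TPM over 5 markers in cKO, 7.76 to 13.7 in control). The neuronal markers Snap25 and Syt1 were under 0.1 TPM in every library, and of the 2 tested neuronal markers Tubb3 rose and Stmn2 fell. Of 3 tested platelet markers Pf4 and Ppbp rose and Itga2b was not called (summed 50.5 to 71.6 over 5 markers in cKO, 26.4 to 29.1 in control). Most of that sum was Pf4 (mean 57.4 in cKO, 25.3 in control). Gp9 and Gp1bb, below the limit of 1 TPM, went opposite ways. Gp9 had mean scaled TPM of 0.0359 in cKO and 0.259 in control hearts, and Gp1bb 0.304 and 0.0336. The macrophage markers rose as well. The part of the platelet or macrophage markers in Rab3d was not tested.

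**Figure D2:**
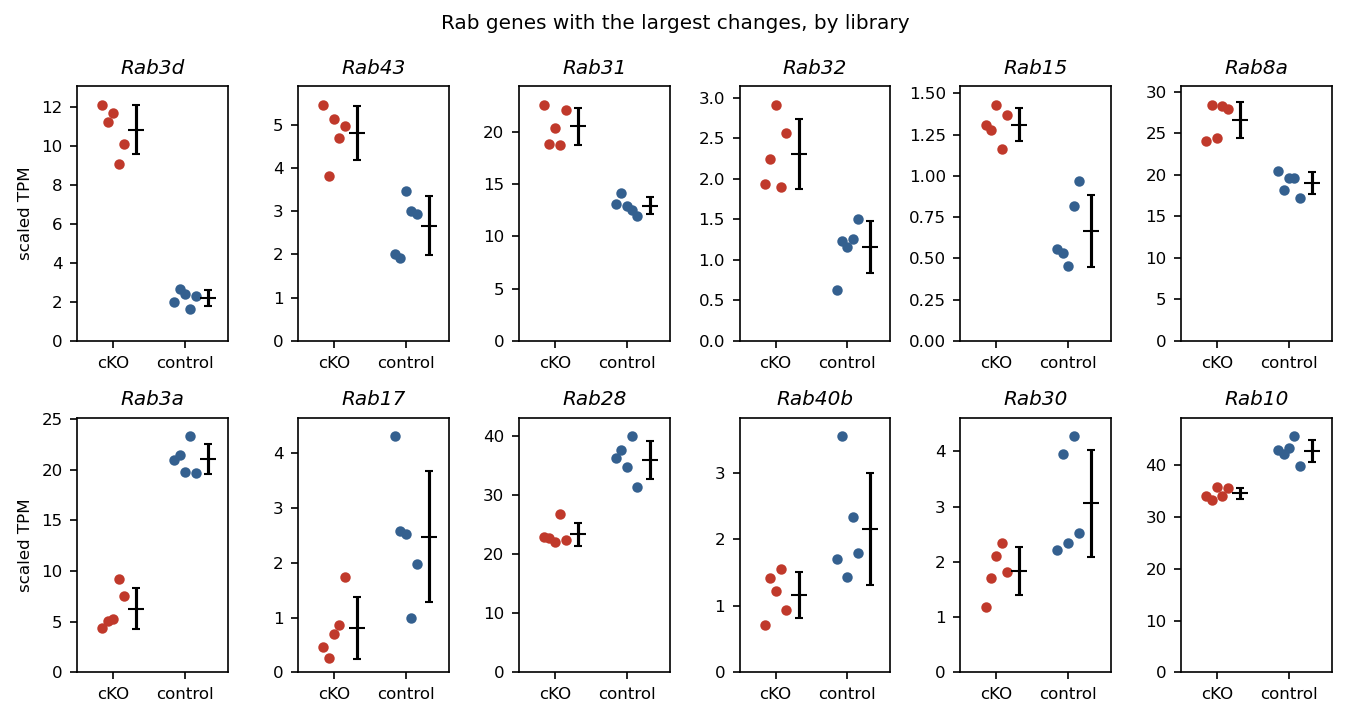
Scaled TPM of the 6 Rab genes with the largest rises and the 6 with the largest falls in each heart, with cKO libraries on the left and control libraries on the right of each panel, points for libraries and lines for the mean and SD (n = 5 each). Rab3d lies at 9.08 to 12.1 in cKO and 1.65 to 2.67 in control hearts, and Rab3a at 4.34 to 9.23 in cKO and 19.7 to 23.3 in control hearts.

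Of 7 Rab genes of early endosomes and uptake, Rab31 and Rab20 rose and 5 were not called. Rab31 (chr17:65651729-65772752, minus strand), a Rab of traffic between the Golgi and endosomes, had 22.6, 18.9, 20.4, 18.8 and 22.1 scaled TPM in cKO hearts, against 13.1, 14.2, 12.9, 12.5 and 12.0 in control hearts. All cKO values were above all control values, and the log2 difference was 0.63 (SE 0.07, adjusted p = 3.54e-05) after scaling and 1.32 as deposited. Its close relative Rab22a, a Rab of endosome sorting, had 7.47 ± 0.510 in cKO and 8.89 ± 1.5 in control hearts (mean ± SD, n = 5 each, log2 difference -0.21, adjusted p = 0.129). As deposited Rab22a was called higher, with a log2 difference of 0.45. Rab31 took 73.3% ± 0.491 of the pair in cKO and 59.5% ± 3.31 in control hearts (mean ± SD, n = 5 each). By library, its share was 73.8%, 72.7%, 73.8%, 73.0% and 73.4% in cKO hearts, against 57.6%, 59.1%, 55.1%, 62.7% and 62.7% in control hearts. Rab20, a Rab of maturing phagosomes, had 14.7 ± 1.39 scaled TPM in cKO and 12.5 ± 0.545 in control hearts (mean ± SD, n = 5 each, log2 difference 0.21, adjusted p = 0.0327). Its call was lost without cKO replicate 5, 6 or 7 or control replicate 4 or 13 (0.19 to 0.20), and 22.9% of its 50-base words are shared with E230013L22Rik. Without the libraries with Xist the log2 difference of Rab20 was 0.21, with its call lost (adjusted p = 0.136). All 7 genes of the group rose as deposited, as did 75.7% of all tested genes.

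The most abundant gene of the early endosome group was Rab5a, which drives the fusion of early endosomes. It had 39.5, 40.6, 39.0, 39.0 and 39.5 scaled TPM in cKO hearts, against 34.7, 39.7, 39.1, 37.5 and 32.4 in control hearts. The groups overlapped (log2 difference 0.11, SE 0.06, adjusted p = 0.197). The paralogues Rab5b and Rab5c and the endocytic Rab21 had log2 differences of -0.06, 0.13 and -0.03, with standard errors of 0.06 to 0.08. Together the early endosome genes held 14.4% ± 0.221 of all Rab TPM in cKO and 13.3% ± 0.355 in control hearts (mean ± SD, n = 5 each), without overlap. The macrophage and fibroblast markers were higher in the cKO group, as were Rab31 and Rab20, and the part of those markers in these differences was not tested.

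The largest group was that of recycling and delivery to the plasma membrane, in which 6 of 13 genes rose (Rab8a, Rab8b, Rab4b, Rab13, Rab15 and Rab35), 3 fell (Rab10, Rab12 and Rab17) and 4 were not called. As deposited 12 of the 13 rose. Of all tested genes, 20.5% rose and 20.5% fell after scaling, and 75.7% rose as deposited. Rab8a (chr8:72161200-72183904, plus strand), which sends vesicles to the plasma membrane and the primary cilium, had 24.1, 28.4, 24.4, 28.3 and 27.9 scaled TPM in cKO hearts, against 20.5, 18.1, 19.6, 19.6 and 17.2 in control hearts. The groups did not overlap (log2 difference 0.47, SE 0.07, adjusted p = 0.000342). Its paralogue Rab8b moved by a like amount, with 7.73 ± 0.599 in cKO and 5.45 ± 0.872 in control hearts (mean ± SD, n = 5 each, log2 difference 0.44, adjusted p = 0.00374). The Rab8a share of the pair was 77.4% in cKO and 77.7% in control hearts (adjusted exact permutation p = 0.825).

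Rab15 (chr12:76797960-76822908, minus strand), a Rab of early and recycling endosomes first studied in neurons, had 1.31, 1.28, 1.43, 1.16 and 1.37 scaled TPM in cKO hearts, against 0.555, 0.530, 0.452, 0.816 and 0.969 in control hearts. The groups did not overlap, although all values were low (log2 difference 0.48, adjusted p = 0.00682). Rab4b, a Rab of fast recycling, had 21 ± 1.04 in cKO and 15.2 ± 3.27 in control hearts (mean ± SD, n = 5 each, log2 difference 0.46, adjusted p = 0.0124), but 58.1% of its 50-base words are shared with other genes, mainly Gm21983. Rab13, which serves cell junctions, had a log2 difference of 0.38 (adjusted p = 0.0354), and 0.32 to 0.35 with its call lost without cKO replicate 6 or 7 or control replicate 8, 9 or 13. Rab35, which recycles cargo from early endosomes, had a log2 difference of 0.26 (adjusted p = 0.0352) and kept its call only without cKO replicate 6 (0.30) or control replicate 9 (0.33) among the 10 fits with 1 library left out, which ranged from 0.23 to 0.33. Without the libraries with Xist the calls of Rab8b (0.37, adjusted p = 0.0936), Rab15 (0.40, adjusted p = 0.106), Rab4b (0.44, adjusted p = 0.142), Rab13 (0.37, adjusted p = 0.187) and Rab35 (0.17, adjusted p = 0.346) were lost.

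Rab10 and Rab12 fell after scaling but rose as deposited. Rab10 (chr12:3247428-3309969, minus strand), which delivers the glucose transporter GLUT4 to the surface of fat cells, had 34.0, 33.2, 35.8, 34.0 and 35.5 scaled TPM in cKO hearts, against 42.8, 42.1, 43.3, 45.5 and 39.8 in control hearts. The scaled groups did not overlap, with a log2 difference of -0.30 (SE 0.05, adjusted p = 0.000894) after scaling and 0.42 as deposited (adjusted p = 0.00124). Rab12, which takes part in the degradation of the transferrin receptor, had 48.2 ± 2.81 in cKO and 55.4 ± 4.18 in control hearts (mean ± SD, n = 5 each, log2 difference -0.20, adjusted p = 0.0339). As deposited its log2 difference was 0.53. Its call held only without cKO replicate 7 or control replicate 9 or 13 among the fits with 1 library left out (-0.23 to -0.16), and was lost without the libraries with Xist (-0.25, adjusted p = 0.064). Rab17 (chr1:90958133-90969661, minus strand), a Rab of epithelial cells, had 0.470, 0.267, 0.698, 0.861 and 1.73 scaled TPM in cKO hearts, against 4.30, 2.57, 2.52, 1.00 and 1.98 in control hearts. The groups overlapped through cKO replicate 7 and control replicate 9 (log2 difference -0.93, SE 0.26, adjusted p = 0.0148 after scaling and 0.0732 as deposited, where it was -0.52). Markers of epithelium and mesothelium were low in both groups (summed 0.495 to 2.07 scaled TPM in cKO, 0.693 to 1.88 in control), and Epcam was under 0.1 TPM in every library.

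Rab11b led this group in level. This Rab of recycling endosomes had 105, 105, 103, 110 and 122 scaled TPM in cKO hearts, against 110, 124, 114, 104 and 110 in control hearts. The ranges overlapped (log2 difference -0.05, SE 0.07, adjusted p = 0.588). Rab11a, its paralogue, had a log2 difference of -0.17 (SE 0.14, adjusted p = 0.347), Rab14 one of -0.07 (adjusted p = 0.318) and Rab4a one of 0.29 (adjusted p = 0.0867). All 4 rose as deposited, as did 75.7% of all tested genes.

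In the group of late endosomes, lysosomes and related organelles, Rab32, Rab34 and Rab7b rose and the other 5 of 8 genes were not called. Rab32 (chr10:10545002-10558265, minus strand), which builds lysosome-related organelles such as melanosomes, had 1.93, 2.24, 2.91, 1.90 and 2.56 scaled TPM in cKO hearts, against 0.626, 1.23, 1.16, 1.26 and 1.5 in control hearts. The cKO values were all higher (a 2-fold ratio of means, log2 difference 0.62, SE 0.14, adjusted p = 0.00362). Rab34, which positions lysosomes, had 12.7 ± 1.94 in cKO and 9.51 ± 1.03 in control hearts (mean ± SD, n = 5 each, log2 difference 0.37, adjusted p = 0.0169). Rab7b, which acts between late endosomes and the Golgi, had 2.46 ± 0.448 in cKO and 1.59 ± 0.488 in control hearts (mean ± SD, n = 5 each, log2 difference 0.43, adjusted p = 0.0416). Its call held only without cKO replicate 6 or control replicate 8 or 9 among the fits with 1 library left out (0.31 to 0.50). None of the 3 calls held without the libraries with Xist, where the log2 differences were 0.50 for Rab32 (adjusted p = 0.0702), 0.20 for Rab34 (adjusted p = 0.325) and 0.43 for Rab7b (adjusted p = 0.193). These 3 genes were higher in the cKO group, as were the macrophage and fibroblast markers, and the part of those markers was not tested.

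Rab7 (chr6:87999106-88045270, minus strand), the defining Rab of late endosomes, was the most abundant Rab gene in both groups. It had 119, 115, 123, 119 and 131 scaled TPM in cKO hearts, against 116, 119, 122, 127 and 114 in control hearts. The groups overlapped almost completely (log2 difference 0.02, SE 0.06, adjusted p = 0.784). The others not called were Rab9 (0.05), which returns receptors to the Golgi, Rab24 (0.02), of whose 50-base words 49.6% are shared (Prelid1), Rab29 (0.00) and Rab36 (0.05), with standard errors of 0.09 to 0.17. As deposited 7 of the 8 rose, all but Rab36, against 75.7% of all tested genes.

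Most Rab genes of endoplasmic reticulum and Golgi traffic were not called: Rab43 rose, Rab30 fell and 8 of 10 did not pass the test. Rab43 (chr6:87788853-87812164, minus strand), a Rab of the Golgi, had 5.46, 3.81, 5.13, 4.69 and 4.98 scaled TPM in cKO hearts, against 2.02, 1.91, 3.46, 3.01 and 2.94 in control hearts. The groups did not overlap (log2 difference 0.68, SE 0.13, adjusted p = 0.00183), but 74.5% of its 50-base words are shared with Gm45140 on the same strand, so reads of the 2 genes could have been split. Rab30, also of the Golgi, had 1.19, 1.71, 2.11, 2.35 and 1.82 in cKO hearts, against 2.21, 3.95, 2.35, 4.27 and 2.53 in control hearts. Its groups overlapped between 2.21 and 2.35, and the log2 difference was -0.50 (SE 0.17, adjusted p = 0.0344) after scaling and 0.01 as deposited. The Rab30 call was lost without cKO replicate 1, 3 or 7 or control replicate 6 or 9 (-0.50 to -0.40). Leaving out the libraries with Xist ended the calls of Rab43 (0.52, adjusted p = 0.0801) and Rab30 (-0.38, adjusted p = 0.254).

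Rab2a, which works between the endoplasmic reticulum and the Golgi, led the group with 76.8, 77.5, 76.6, 79.4 and 89.8 scaled TPM in cKO hearts, against 69.9, 88.6, 74.3, 73.2 and 68.9 in control hearts. The groups overlapped (log2 difference 0.10, SE 0.08, adjusted p = 0.356). Rab1a, which brings vesicles to the Golgi, had 71.0 ± 4.20 in cKO and 65.3 ± 5.49 in control hearts (mean ± SD, n = 5 each, log2 difference 0.12, adjusted p = 0.192), and Rab1b had a log2 difference of -0.06. Rab6a, which acts within the Golgi, had 44.4 to 48.9 in cKO and 41.0 to 44.3 in control hearts, which do not overlap, but its log2 difference of 0.11 did not pass the test (adjusted p = 0.121). Rab18, Rab2b, Rab33b and Rab6b had log2 differences of 0.02, 0.11, 0.15 and 0.03. Of their 50-base words, Rab2b shared 57% with other genes (mainly Gm43766), Rab33b 21.2% and Rab6a 19% (Mrpl48), so their levels are less certain. As deposited 9 of the 10 rose, all but Rab30, against 75.7% of all tested genes.

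Of the 4 genes tied to cilia or to other roles, Rab28 and Rab40b fell, Rab40c rose and Rab23 was not called. Rab28 (chr5:41624976-41708157, minus strand), known from the cilium of photoreceptors, had 22.9, 22.8, 22.1, 26.8 and 22.3 scaled TPM in cKO hearts, against 36.2, 37.6, 34.7, 39.9 and 31.3 in control hearts. The scaled groups did not overlap (log2 difference -0.60, SE 0.08, adjusted p = 9.28e-05), while as deposited the log2 difference was 0.12 (adjusted p = 0.312). Rab40b and Rab40c carry a box that joins them to ubiquitin ligases. Rab40b had 0.712, 1.42, 1.22, 1.56 and 0.943 in cKO hearts, against 1.70, 3.55, 1.44, 2.33 and 1.79 in control hearts, with overlap at 1.44 to 1.56 (log2 difference -0.52, SE 0.18, adjusted p = 0.0374). Its call was lost without cKO replicate 1, 5 or 7 or control replicate 6 or 9 (-0.52 to -0.38). Rab40c had 6 ± 1.15 in cKO and 4.47 ± 0.545 in control hearts (mean ± SD, n = 5 each, log2 difference 0.35, adjusted p = 0.0295), and its call was lost without cKO replicate 5 or control replicate 9 or 13 (0.31 to 0.35). Neither call held without the libraries with Xist (Rab40b -0.29, adjusted p = 0.395, and Rab40c 0.20, adjusted p = 0.265). Rab23, a brake on hedgehog signalling, had a log2 difference of -0.12 after scaling (SE 0.18, adjusted p = 0.636) and 0.54 as deposited.

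The share of a paralogue within its subfamily was tested in the 11 subfamilies with at least 2 tested members. The share of the more abundant paralogue shifted in 4 of them (two-sided exact permutation test, 252 splits, adjusted over the 11). These were Rab3a with Rab3d (difference -54.0 percentage points, adjusted exact permutation p = 0.0291), Rab31 with Rab22a (13.9 points, with the same p), Rab7 with Rab7b and Rab40c with Rab40b. Rab7b took 1.99% of the Rab7 pair in cKO and 1.31% in control hearts (adjusted exact permutation p = 0.0291). Rab40c took 83.2% ± 5.86 of its pair in cKO and 67.9% ± 8.68 in control hearts (mean ± SD, n = 5 each, adjusted exact permutation p = 0.0437), with overlap. Rab1a (52.6% in cKO, 49.5% in control), Rab2a (95.3% in cKO, 95.4% in control), Rab4b (87.2% in cKO, 86.6% in control), Rab5a (39% in cKO, 38% in control), Rab6a (95.6% in cKO, 95.3% in control), Rab11b (58.5% in cKO, 56.4% in control) and Rab8a did not pass the test (adjusted exact permutation p from 0.378 to 0.825). Without cKO replicate 3 or control replicate 6 the count of shifted subfamilies was 2. Without the 3 libraries with Xist the count was 0, but this setting cannot decide the question. Only 21 splits remain there, and the smallest p they allow cannot pass the adjustment unless all 11 subfamilies reach it.

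**Figure D3:**
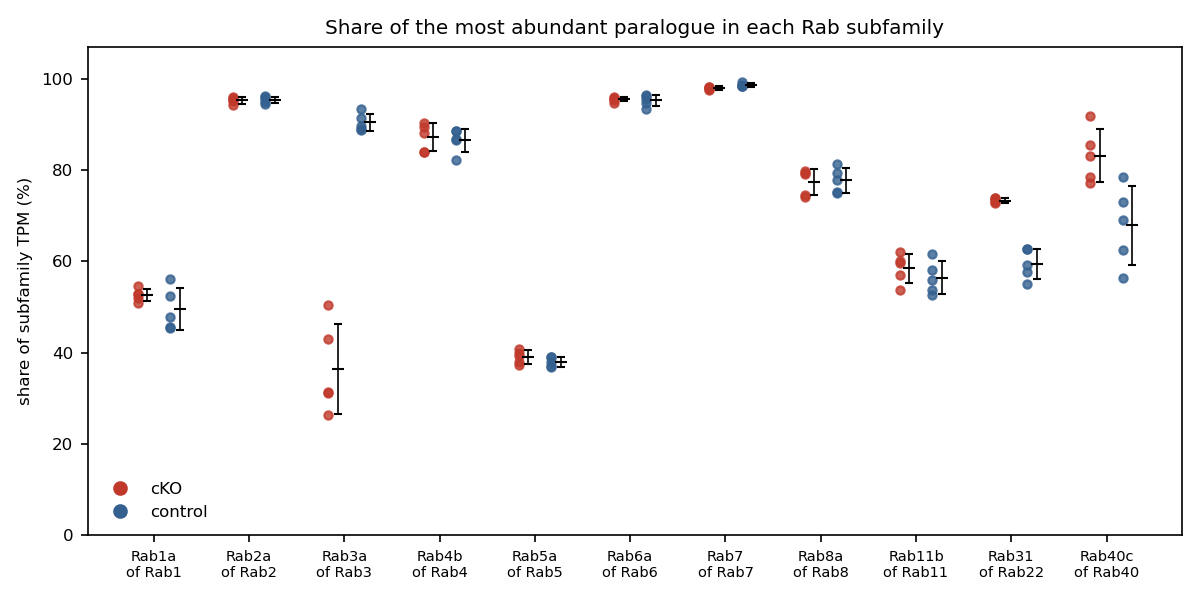
Percent of a subfamily's summed TPM held by its most abundant paralogue in each heart, with cKO libraries to the left of control libraries for each of 11 subfamilies, and with lines for the mean and SD (n = 5 each). The Rab3a share lies at 26.4% to 50.4% in cKO and 88.9% to 93.4% in control hearts, and the Rab31 share at 72.7% to 73.8% in cKO and 55.1% to 62.7% in control hearts.

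The summed level of the 45 genes was 1181 ± 53.3 scaled TPM in cKO and 1176 ± 47.9 in control hearts (mean ± SD, n = 5 each), with overlap. As deposited it was 1527 ± 62.3 TPM in cKO and 915 ± 115 TPM in control hearts (mean ± SD, n = 5 each), without overlap. Rab7, Rab11b, Rab11a, Rab2a and Rab1a together held 38.9% ± 1.12 of Rab TPM in cKO and 39.1% ± 1.12 in control hearts (mean ± SD, n = 5 each). Regulated secretion held 1.53% ± 0.0594 in cKO and 2.09% ± 0.0844 in control hearts, and the cilia and other group 3.23% ± 0.237 in cKO and 4.33% ± 0.129 in control hearts (mean ± SD, n = 5 each), neither with overlap. The shares of the other groups overlapped except that of the early endosome genes. Endoplasmic reticulum and Golgi genes held 29.4% in cKO and 28.3% in control hearts, recycling and delivery genes 35.9% in cKO and 37% in control hearts, and late endosome and lysosome genes 15.6% in cKO and 15% in control hearts. These sums are given as a description, without a test.

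**Figure D4:**
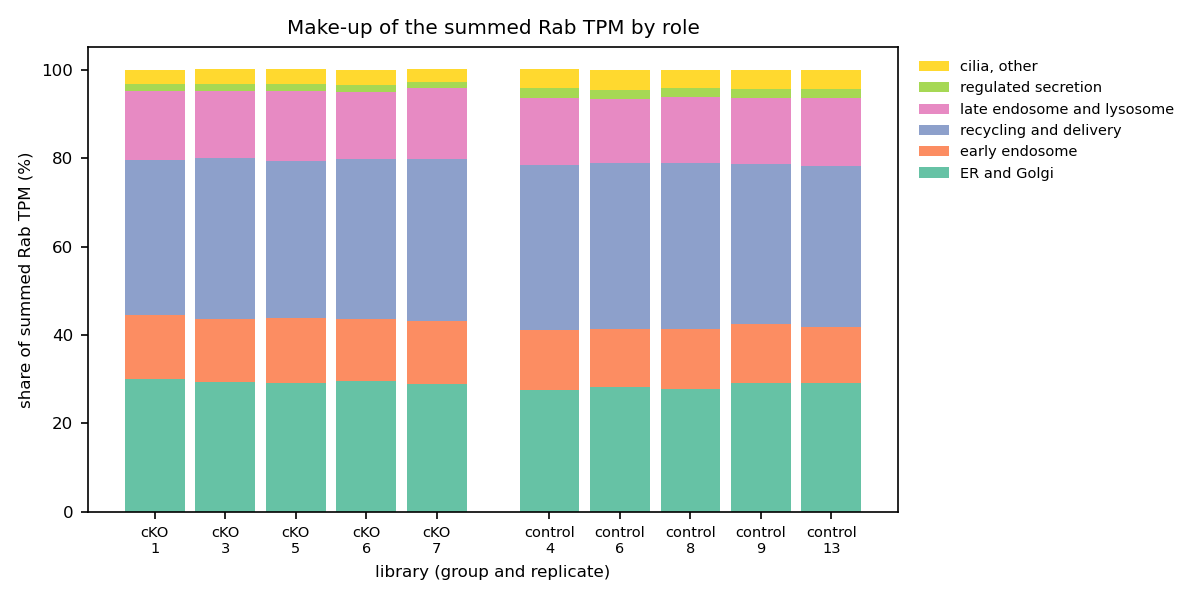
Share of the summed Rab TPM held by each role group in each heart (percent), cKO libraries left of control libraries. The recycling and delivery group is the largest in every library, at 34.9% to 36.6% in cKO and 36.1% to 37.5% in control hearts, and regulated secretion is the smallest.

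The other 14 members had means of 0.0617 to 0.91 TPM and were not tested. They were Rab3b, Rab3c, Rab9b, Rab19, Rab25, Rab26, Rab27b, Rab33a, Rab37, Rab38, Rab39, Rab39b, Rab42 and Rab44. In a fit without the filter on low values Rab39 alone of them was called, with a log2 difference of 0.13 (adjusted p = 0.0232).

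The proteins that switch, carry and read Rab proteins were counted from 4 lists, in which 26 of 108 tested genes rose and 13 fell after scaling. Of 36 tested exchange factors 8 rose and 2 fell (median log2 difference 0.11), of 32 GTPase-activating proteins 7 rose and 4 fell (0.05), of 8 genes of prenylation and membrane cycling 2 rose and 1 fell (-0.07), and of 32 effectors 9 rose and 6 fell (0.09). Over the 4 lists 24.1% rose and 12% fell, against 20.5% and 20.5% of all tested genes. As deposited 93 of the 108 rose and 2 fell (86.1% and 1.85%), against 75.7% and 3.42% of all tested genes. Both with Ddx3y as a covariate and without the libraries with Xist, 5 exchange factors, 4 GTPase-activating proteins, 1 cycling gene and 8 effectors rose. Over the 4 lists that is 18 of 108 higher, with 12 lower under the covariate and 10 lower without those libraries, and Dennd3 and Gdi2 lost their calls in both. Of all tested genes, 12.1% rose and 13.1% fell under the covariate, and 12.4% rose and 13.3% fell without those libraries.

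Rab3il1, an exchange factor that acts on Rab3a and Rab8, rose, with 8.07, 7.81, 6.85, 7.63 and 8.18 scaled TPM in cKO hearts, against 3.68, 4.75, 3.96, 3.24 and 3.80 in control hearts (log2 difference 0.84, adjusted p = 2.01e-05). Its groups did not overlap. Dennd4c, an exchange factor of Rab10, had 8.42 ± 1.13 in cKO and 5.62 ± 0.394 in control hearts (mean ± SD, n = 5 each, adjusted p = 0.000996). The exchange factors that fell were Dennd1b (log2 difference -0.36, adjusted p = 0.00254), which acts on Rab35 and had 0.23 as deposited (adjusted p = 0.0558), and Dennd3 (-0.73, adjusted p = 0.0198), which acts on Rab12, had overlapping groups and had -0.13 as deposited (adjusted p = 0.552).

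Among the GTPase-activating proteins, Tbc1d1, which restrains glucose transporter traffic in muscle, rose furthest of those named by their adjusted p. It had 26.9, 23.7, 28.1, 26.3 and 31.3 scaled TPM in cKO hearts, against 9.34, 6.87, 8.8, 11 and 10.3 in control hearts. The groups lay far apart (log2 difference 1.47, adjusted p = 2.43e-06), and as deposited the log2 difference was 2.16. Evi5 rose (0.70, adjusted p = 0.000319), as did Tbc1d2b (0.38, adjusted p = 0.00098). Tbc1d16 (-0.74, adjusted p = 0.000237), Tbc1d9 (-0.61, adjusted p = 0.000561) and Tbc1d22b (-0.44, adjusted p = 0.000232) fell after scaling, whereas their deposited log2 differences were -0.07, -0.13 and 0.20.

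Gdi2, which extracts inactive Rab proteins from membranes, had 162 ± 14.2 scaled TPM in cKO and 126 ± 17.9 in control hearts (mean ± SD, n = 5 each, log2 difference 0.37, adjusted p = 0.0107), and Rabif, a chaperone of Rab proteins without nucleotide, had 7.75 ± 1.06 in cKO and 5.29 ± 0.275 in control hearts (mean ± SD, n = 5 each, adjusted p = 0.00139). Rabac1, a membrane protein that binds prenylated Rab proteins, had a log2 difference of -0.20 (adjusted p = 0.0464) after scaling and 0.54 as deposited. Among effectors, Rph3al, which binds Rab3 and Rab27 on secretory granules, had 9.08, 11, 8.22, 9.01 and 7.55 scaled TPM in cKO hearts, against 3.18, 2.11, 3.06, 5.23 and 3.53 in control hearts (log2 difference 1.2, adjusted p = 0.000126). All its cKO values were above all its control values. Uso1, a Golgi tether recruited by Rab1, rose (0.74, adjusted p = 2.95e-05), as did Mical1, an actin oxidase (0.76, adjusted p = 5.39e-05). Myo5b, a myosin motor of Rab11 membranes, fell (-1.04, adjusted p = 0.0001), with 1.05 ± 0.281 in cKO and 3.23 ± 0.645 in control hearts (mean ± SD, n = 5 each). The Rab7 effector Osbpl1a (-0.69, adjusted p = 1.15e-05) and Rilpl1 (-0.67, adjusted p = 0.0001) fell after scaling, with log2 differences of 0.02 and 0.05 as deposited. Rph3a and Sytl5, effectors of Rab3 and Rab27, were under 0.1 TPM in every library.

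**Figure D5:**
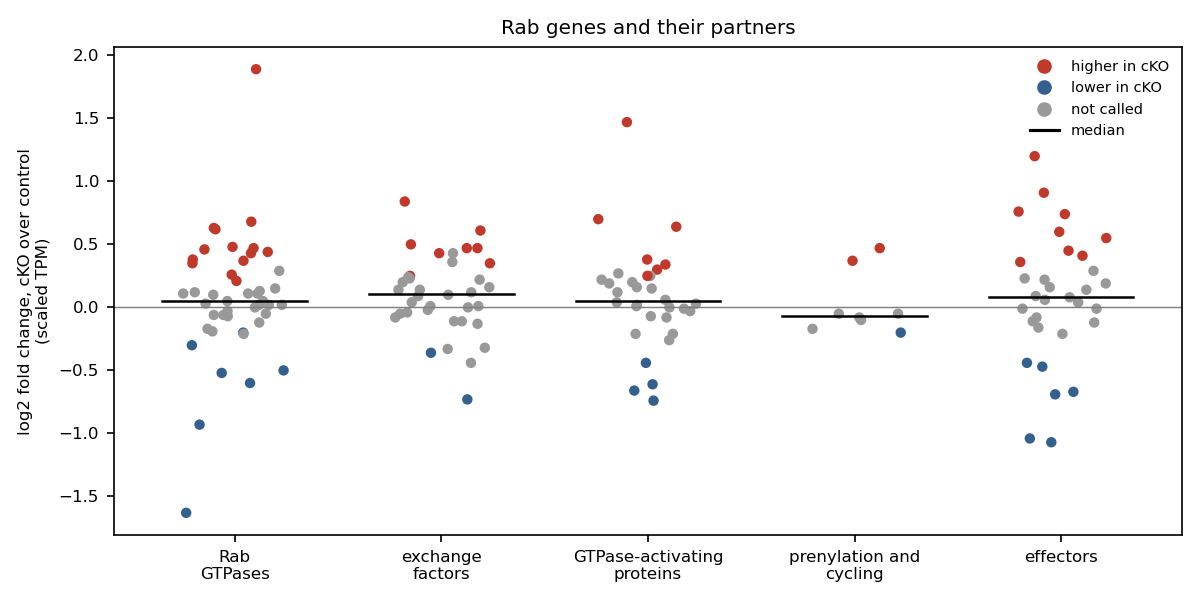
Log2 difference (cKO minus control, scaled TPM) of the tested Rab genes and of the tested genes of the 4 partner lists, 1 point per gene and 1 column per list, with called genes in colour (red higher, blue lower) and a line at each median. Tbc1d1 at 1.47 and Rph3al at 1.2 lie near the top and Myo5b at -1.04 near the bottom of their columns, while the medians of the partner lists lie between -0.07 and 0.11.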

How the data were processed

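RNA from 10 whole mouse hearts was extracted with the RNeasy Mini Kit and 1 μg made into libraries with a VAHTS Universal V10 RNA-seq kit, as the labels state. The authors deposited 1 table of TPM, in which each library sums to 1000000. TPM keeps no depth, so the reads behind each value are unknown and no counting interval is given. The submitters' processing notes name, without roles, STAR 2.7.1, HTSeq 0.11.2, DESeq2 1.22.2, Picard 1.96, Trimmomatic 0.32, FastQC 0.11.7, bcl2fastq and the build mm10. No source used here gives the annotation release or strand setting.

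Each library was scaled by its median-of-ratios factor, from 16393 genes, and tested as log2(value + 1), which understates changes of low genes, for the 13391 genes with a mean of at least 1 TPM. The comparison used limma 3.58.1 under R 4.3.3 (two-sided, variance trend, Benjamini-Hochberg adjustment over all 13391). On simulated data the fit recovered 68.7% of 1.5-fold, 83.6% of 2-fold and 97% of 4-fold changes, so small changes can be missed. The simulation changed 66 or 67 genes at each fold size, far fewer than were called in the real data, so recovery there may differ. Of its 181 calls, 15 were false. TPM as deposited was tested in the same way. Groups and replicate numbers come from the sample titles. The design text gives 5 mice per group, and p-values measure the spread between these animals. No 2 libraries were identical. Coordinates are from GENCODE M21 on GRCm38, in which all 59 Rab genes and 51460 of the 55858 gene IDs were found without their version. Words of 50 bases shared with other genes were counted in its transcripts, and promoters are from RefSeq. Of the 39 Rab promoters, 37 were followed by bases of the gene's own transcripts on the same strand.

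Values in every library are given for the 6 largest rises and falls among called Rab genes and for the most abundant of each role group, and up to 3 called genes in each direction with the smallest adjusted p are named per partner list, except 1 that is not reported here. Other genes named or listed library by library were picked after their values were seen. Of 127 partner genes listed, 3110043O21Rik was not matched. Members, role groups, partner lists and marker lists were chosen with earlier results of these data known. The motifs and the fit without the libraries with Xist were chosen after seeing the data. Further marker lists gave these counts: smooth muscle and pericyte, 2 higher and 2 lower of 5 tested, and none called of 1 lymphocyte, 1 Schwann cell and 3 erythroid genes tested. Settings varied were the scaling, mitochondrially encoded genes, pseudocount, filter, variance trend, library weights, Ddx3y as a covariate and each library left out.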

Additional observations from a re-analysis of the deposited data

Results flagged for a closer look

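In each gene, the highest or lowest library of a group of 5 was set against the rest of its group (Dixon's ratio of gap to range, critical value 0.71), which chance passes in about 5% of groups. Of 90 groups of Rab gene values and 22 groups of subfamily shares, 5 passed, all of them gene values. Rab28 was 26.8 scaled TPM in cKO replicate 6 and 22.1 to 22.9 in the other cKO hearts. Rab2a was 89.8 in cKO replicate 7 (76.6 to 79.4 in the other cKO hearts) and 88.6 in control replicate 6 (68.9 to 74.3 in the other control hearts). Rab40c was 8 in cKO replicate 1 and 5.24 to 5.94 in the other cKO hearts. Rab14 was 63.7 in control replicate 4 and 67.7 to 69.2 in the other control hearts.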

How the results depend on the processing

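After scaling, 14 Rab genes rose and 7 fell. These counts were 38 and 1 as deposited, 31 and 3 with TPM recomputed without mitochondrially encoded genes and no other scaling, 4 and 4 with Ddx3y as a covariate, 3 and 4 without the 3 libraries with Xist, and 9 to 12 and 4 to 8 with 1 library left out. The partner lists, with 26 and 13, gave 93 and 2 as deposited and 59 and 7 without mitochondrially encoded genes. Of all tested genes, 75.7% rose and 3.42% fell as deposited. That share was not counted without mitochondrially encoded genes or with 1 library left out. Shifted subfamilies numbered 4, 2 to 4 with 1 library left out, and 0 without the libraries with Xist. There the smallest exact permutation p of 0.0476 cannot pass the adjustment unless all 11 subfamilies reach it. The causes were not tested, except that this last setting leaves 21 splits. Of 21 called Rab genes, 13 kept their call without each library in turn, and 4 kept it in every setting run. Chmp4b kept its direction as deposited, with each library left out in turn and without the libraries with Xist. It was not followed through the other settings.

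Directions turned mainly with the scaling. As deposited, the log2 differences were Rab10 0.42, Rab11a 0.56, Rab11b 0.69, Rab12 0.53, Rab14 0.67, Rab1b 0.67, Rab21 0.68, Rab22a 0.45, Rab23 0.54, Rab27a 0.19, Rab28 0.12, Rab29 0.65, Rab30 0.01, Rab5b 0.65, Dennd1b 0.23, Tbc1d22b 0.20, Rabac1 0.54, Osbpl1a 0.02 and Rilpl1 0.05. Without mitochondrially encoded genes they were Rab11a 0.12, Rab11b 0.24, Rab12 0.09, Rab14 0.23, Rab1b 0.24, Rab21 0.25, Rab22a 0.05, Rab23 0.15, Rab29 0.27, Rab5b 0.23 and Rabac1 0.09. Rab29 was 0.02 with upper-quartile scaling and 0.00 with a pseudocount of 0.1. With the Ddx3y covariate, Rab23 was 0.08, Rab6b -0.03, Rab7 -0.03 and Rab9 -0.01, and without the libraries with Xist Rab23 was 0.08, Rab6b -0.03, Rab7 -0.03 and Rab9 0.00. In that last setting the share differences were 0.191 points for Rab2a, -0.5 for Rab4b and 1.84 for Rab8a. With 1 library left out, the sign turned within these ranges: Rab18 -0.04 to 0.06, Rab23 -0.25 to 0.01, Rab24 -0.04 to 0.08, Rab29 -0.08 to 0.06, Rab36 -0.07 to 0.14, Rab6b -0.04 to 0.11, Rab7 0.00 to 0.04, Rab9 -0.02 to 0.09, and the shares of Rab2a -0.37 to 0.14, Rab4b -0.428 to 1.45, Rab6a -0.167 to 0.552 and Rab8a -1.03 to 0.553 points. No paired analysis was possible because the groups share only replicate number 6.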
